A study of Mus musculus with 12 samples.

Results

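The genes described here belong to the hypoxia-inducible factor (HIF) pathway, the system by which cells adjust transcription to oxygen, and to its feedback loop. They were taken from a list of names: the factor subunits Hif1a and Arnt, the oxygen sensors Egln1, Egln2, Egln3 and Hif1an, the degradation adaptor Vhl, and the HIF target genes Kdm3a, Ankrd37 and Bnip3. All 10 were matched by symbol and ID in a count table of 56748 genes, and all 10 were among the 15688 genes with enough counts to be tested. They were followed through CD8+ T cells of 6 mice that had been expanded with or without 5 mM DCA (dichloroacetate), which blocks the kinases that hold pyruvate dehydrogenase in its inactive state.

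HIF is a pair of proteins, an oxygen-sensitive alpha subunit such as that of Hif1a and the stable beta subunit of Arnt. In the presence of oxygen, the EGLN prolyl hydroxylases mark the alpha subunit, the VHL protein recognises the mark, and a cullin ubiquitin ligase sends the subunit to the proteasome. The asparagine hydroxylase of Hif1an adds a further mark that keeps coactivators away. All these hydroxylases use 2-oxoglutarate, an intermediate of the citric acid cycle. Egln1, Egln3, Kdm3a, Ankrd37 and Bnip3 are themselves known HIF targets, so that the pathway makes more of its own sensors when it is active. In activated CD8+ T cells HIF1 is known for driving glycolytic genes and effector programmes, and receptor and cytokine signals raise it even where oxygen is plentiful. Much of its control acts on the protein, which was not measured here.

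Each of 2 experiments had 3 mice, and splenocytes of each mouse gave a DCA library and an untreated library, so that each of the 4 groups had 3 libraries. Cells from whole spleens were stimulated with their peptide for 24 hours (250 nM SIINFEKL for OT-1 cells, 1 uM gp100 for pmel-1 cells). They were then grown for 6 more days in IL-2 (50 ug/mL) and 10% serum, with or without DCA, and sorted for CD8 on day 7. The mice of experiment 1 are tagged as OT-1, C57BL/6-Tg(TcraTcrb)1100Mjb/J, whose T cells carry 1 transgenic receptor for an ovalbumin peptide, but the titles name Pmel-1. In experiment 2 the titles and tags name Pmel-1, a B6.Cg-Thy1a/Cy line carrying Tg(TcraTcrb)8Rest, whose receptor sees a gp100 peptide. The ages and sex of the mice are not in the labels used here. Experiment, technical batch and the tagged strain coincide and cannot be told apart, whereas DCA was tested within each experiment.

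Totals were 28039699 to 41051066 counts per library, and no gene of the list fell below 228 counts in any library. The CD8 T cell genes Cd8a, Cd8b1, Cd3e, Cd3d and Cd3g summed to 4729 to 5051 CPM with DCA and 4381 to 5120 CPM untreated in experiment 1 (counts per 1000000 counts of the TMM-scaled total, the scale of all CPM values here). In experiment 2 they summed to 3226 to 3385 CPM with DCA and 3999 to 4478 CPM untreated, without overlap. Of genes that define other spleen cells, Cd4, Foxp3, Ms4a1, Cd79a, Lyz2 and Csf1r stayed under 1 CPM. The 8 myeloid genes summed to 12.1 to 33.3 CPM with DCA and 9.36 to 13.3 CPM untreated in experiment 1, and to 14.04 to 16.8 CPM with DCA and 7.18 to 15.2 CPM untreated in experiment 2. Most of this was Cd68, at 6.70 to 29.9 CPM, with Cd14 at up to 3.44 CPM. The 6 B cell genes summed to 395 to 462 CPM with DCA and 290 to 439 CPM untreated in experiment 1, and to 419 to 502 CPM with DCA and 356 to 453 CPM untreated in experiment 2, almost wholly from Ighm and Cd79b, and the part of these marker levels in the results was not tested. The 3 NK cell genes summed to 0.637 to 1.32 CPM in experiment 2 and 11.8 to 16.4 CPM in experiment 1. Sex-linked transcripts differed between the mice. Mice 1 and 2 of experiment 1 had Xist at 34.5 to 46.9 CPM and 0 counts of Ddx3y, Eif2s3y, Kdm5d and Uty in both arms. The other 4 mice, mouse 3 of experiment 1 and all of experiment 2, had Ddx3y at 64.5 to 92.2 CPM and Xist at 3.08 CPM or less. In bulk RNA, fewer cells with a transcript and less of it in each cell cannot be told apart.

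The promoters of the genes that the results turn on are shown with the pentamers ACGTG and GCGTG in capitals, the core of the hypoxia response elements that HIF binds, read on both strands. They are RefSeq windows from 250 bases before to 50 bases after the gene start, on GRCm38.p6. A capital run longer than 5 bases holds overlapping matches, among them the palindrome CACGTG, which counts as ACGTG on both strands.
Ankrd37, chr8:45999801-46000100, minus strand: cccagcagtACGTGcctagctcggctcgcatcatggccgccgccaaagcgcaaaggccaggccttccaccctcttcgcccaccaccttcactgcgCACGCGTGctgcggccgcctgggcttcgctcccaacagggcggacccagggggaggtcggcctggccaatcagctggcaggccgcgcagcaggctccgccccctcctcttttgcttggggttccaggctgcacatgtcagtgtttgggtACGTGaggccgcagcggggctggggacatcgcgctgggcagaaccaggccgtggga
Kdm3a, window 1 of 3, chr6:71632868-71633167, minus strand: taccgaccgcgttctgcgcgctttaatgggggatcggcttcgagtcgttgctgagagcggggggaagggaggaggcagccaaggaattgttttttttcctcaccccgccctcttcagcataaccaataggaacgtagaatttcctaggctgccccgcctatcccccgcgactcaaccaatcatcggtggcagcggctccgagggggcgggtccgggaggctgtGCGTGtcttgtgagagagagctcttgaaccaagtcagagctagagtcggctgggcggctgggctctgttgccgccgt
Egln1, chr8:124949205-124949504, minus strand: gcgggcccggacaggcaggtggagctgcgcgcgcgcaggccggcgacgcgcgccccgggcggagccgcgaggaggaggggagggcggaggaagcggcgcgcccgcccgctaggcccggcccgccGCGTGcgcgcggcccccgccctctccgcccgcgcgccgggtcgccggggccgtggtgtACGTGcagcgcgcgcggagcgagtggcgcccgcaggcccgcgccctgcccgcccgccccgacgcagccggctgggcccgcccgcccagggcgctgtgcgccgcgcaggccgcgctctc
Hif1a, chr12:73907617-73907916, plus strand: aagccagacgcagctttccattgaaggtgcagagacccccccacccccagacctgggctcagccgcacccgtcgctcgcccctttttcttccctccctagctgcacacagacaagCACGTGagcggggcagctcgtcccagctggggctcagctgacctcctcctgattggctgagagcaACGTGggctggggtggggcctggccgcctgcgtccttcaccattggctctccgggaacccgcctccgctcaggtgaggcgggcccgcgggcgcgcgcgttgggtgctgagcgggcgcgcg
Bnip3, chr7:138909457-138909756, minus strand: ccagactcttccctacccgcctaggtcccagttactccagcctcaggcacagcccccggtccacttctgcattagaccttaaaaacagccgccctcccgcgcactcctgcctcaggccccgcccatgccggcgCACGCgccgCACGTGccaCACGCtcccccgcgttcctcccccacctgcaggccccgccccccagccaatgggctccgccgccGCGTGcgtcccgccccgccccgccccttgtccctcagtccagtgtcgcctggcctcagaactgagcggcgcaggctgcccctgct
Ankrd37 had ACGTG at -241 and -6, counted in bases from its start, and GCGTG on both strands in the run between them. Bnip3 had 5 matches, Hif1a 3, all of them ACGTG, Egln1 2, and the window 1 of Kdm3a a single GCGTG. Of the remaining members, Egln2 had 6 matches in its window 1, Egln3 and Arnt 1 each, and Vhl and Hif1an none of these letters in the window. Counted in the window 1 of each gene, either pentamer was present in 8 of the 10 members. Over all 32851 RefSeq windows of the same length, the share was 43.8%. This background counts windows and not genes. The members had 13 windows in all, and windows 2 and 3 of Kdm3a held no match. Member and background shares, here and in the next sentence, are thus not like for like. ACGTG alone was in 6 of the 10 and in 19.6% of all windows, and GCGTG in 6 of the 10 and in 32.4%. The members' windows were also rich in G and C, at 54.7% to 86.0% in the window 1 of each gene against a median of 52.7% over all windows. A match is only a run of letters, and binding was not measured.

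With DCA, transcripts of Hif1a fell while those of several HIF target genes rose. Over both experiments 3 of the 10 genes were higher with DCA (Ankrd37, Kdm3a and Egln1), 1 was lower (Hif1a), and 6 did not pass the test (edgeR quasi-likelihood test with a term for experiment, Benjamini-Hochberg adjusted p under 0.05 over all genes). Of all 15688 genes tested, 16.8% were called, 7.01% higher and 9.8% lower. The median log2 fold change (DCA over untreated) of the 10 members was 0.05, against -0.02 for all genes. The split over all genes was 1100 higher and 1538 lower, but 1231 higher and 1041 lower under cyclic loess scaling, which called Bnip3 as well.

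**Figure D1:**
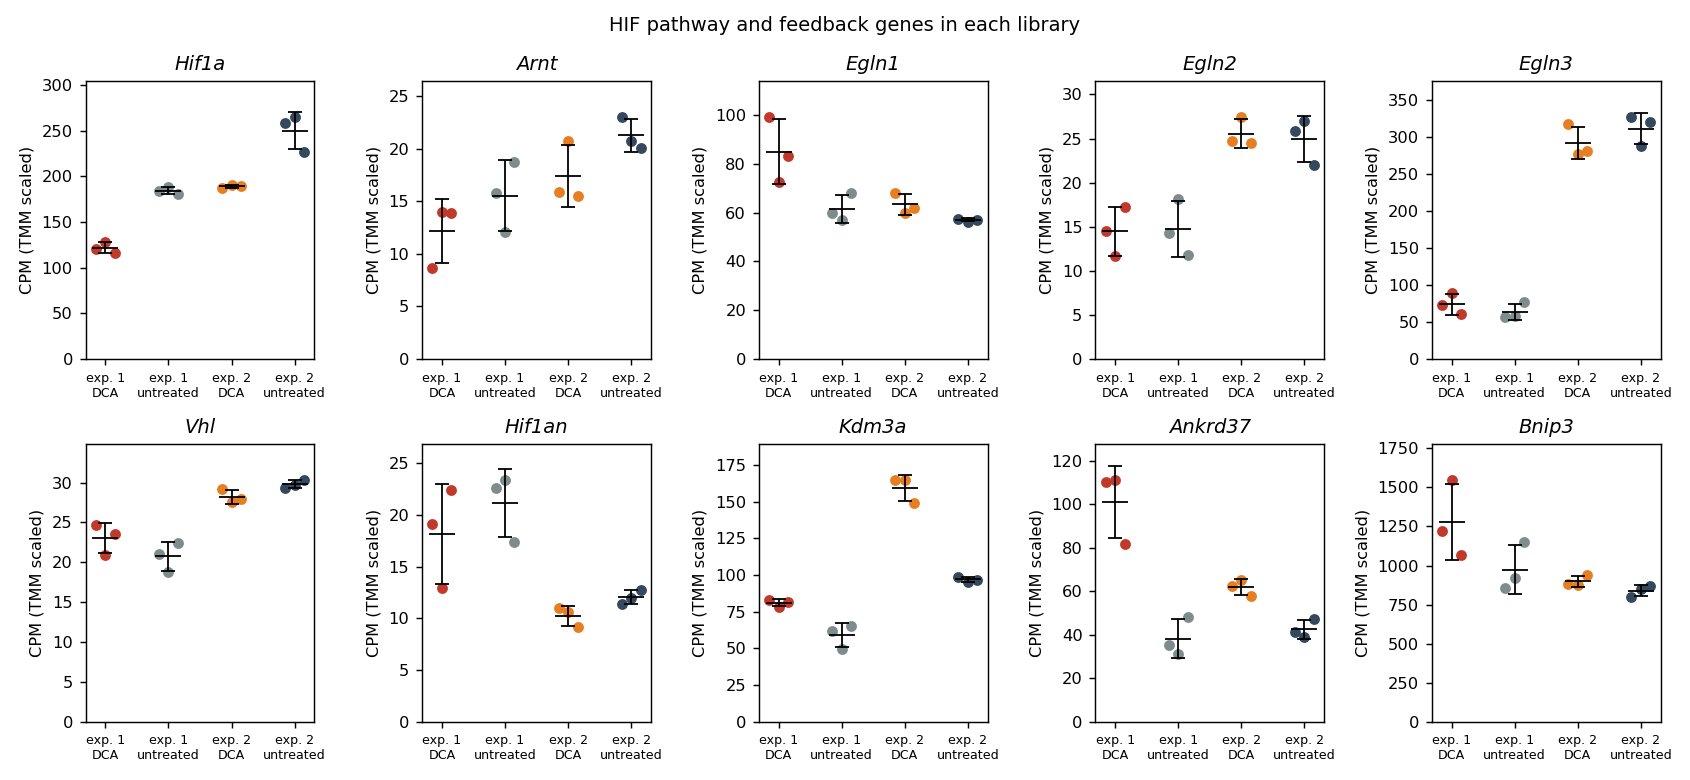
CPM of each gene (vertical axis, from 0) in the 3 libraries of each group; points are libraries of mice 1 to 3 from left to right, and the bar is the mean ± SD. Hif1a is lower and Kdm3a and Ankrd37 are higher in every DCA library than in any untreated library of the same experiment, while Egln3 differs mainly between the experiments.

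Among the factor subunits, Hif1a (ENSMUSG00000021109.14) was lower with DCA in 6 of 6 mice. In experiment 1 it stood at 120, 129 and 117 CPM in the DCA libraries of mice 1 to 3, against 184, 188 and 181 CPM in the untreated libraries. In experiment 2 the DCA libraries had 187, 191 and 189 CPM, against 258, 265 and 227 CPM untreated. Neither pair of groups overlapped, and the DCA libraries of experiment 2 lay in the range of the untreated libraries of experiment 1 or just above it. The log2 fold change was -0.50 over both experiments (SE 0.06, adjusted p = 0.000122), a level 0.707 times that of untreated cells, and the call held in all 21 alternatives. It was -0.40 in experiment 2 and -0.60 in experiment 1, and the difference between them did not pass the test (0.19, 95% interval -0.0041 to 0.39, adjusted p = 0.415).

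Arnt (ENSMUSG00000015522.19), the constitutive beta subunit, did not pass the test. In experiment 1 it had 8.71, 14.02 and 13.9 CPM with DCA and 15.8, 12.04 and 18.8 CPM untreated. Experiment 2 gave 15.9, 20.8 and 15.5 CPM with DCA and 23.0, 20.7 and 20.1 CPM untreated. The groups overlapped in both experiments, mouse 2 being the exception to a lower DCA value each time, and the log2 fold change was -0.32 (SE 0.14, adjusted p = 0.143).

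The Hif1a locus also carries Gm15283, an antisense gene that shares 330 of the 5896 exon bases of Hif1a, in the mouse annotation on GRCm38. It was singled out after its values were seen. Gm15283 had 19.2, 24.6 and 17.03 CPM in the DCA libraries of experiment 1, against 2.61, 6.08 and 8.69 CPM untreated. The DCA libraries of experiment 2 had 25.9, 22.7 and 25.0 CPM, against 11.8, 12.3 and 14.3 CPM untreated. Its groups did not overlap in either experiment, and it was higher with DCA (log2 fold change 1.36 over both experiments, SE 0.23, adjusted p = 0.00145; called in all 21 alternatives), the opposite direction to Hif1a. In experiment 2 alone it was 0.94 and did not pass the test (adjusted p = 0.0775). Nothing in the sources used here gives the strand setting of the counting, and reads of Hif1a and Gm15283 in the shared bases cannot be told apart.

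Of the 3 prolyl hydroxylases, the one called was Egln1 (PHD2, ENSMUSG00000031987.7), the main sensor of HIF1 alpha in most cells. In experiment 1 Egln1 had 99.1, 72.7 and 83.2 CPM with DCA, against 59.97, 56.8 and 68.0 CPM untreated. Its levels in experiment 2 were 68.1, 59.96 and 62.0 CPM with DCA, against 57.5, 56.4 and 57.2 CPM untreated. DCA libraries were above untreated ones in both experiments without overlap, by less in experiment 2. Egln1 was higher with DCA over both experiments (log2 fold change 0.31, SE 0.09, adjusted p = 0.0268) and in experiment 1 (0.46, SE 0.11, adjusted p = 0.0115), but not in experiment 2 (0.15, SE 0.11, adjusted p = 0.534). The call over both experiments was lost in 7 of 21 alternatives, 5 of which left out a single library. The adjusted p was 0.0641 or 0.0656 without the untreated library of mouse 1 or 2 of experiment 1 and 0.0520 without the DCA library of mouse 3. It was 0.0504 without the untreated library of mouse 2 and 0.0667 without the DCA library of mouse 1 of experiment 2. In experiment 1 the call was lost without the untreated library of mouse 2 (0.0504) or the DCA library of mouse 1 (0.0568).

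Egln3 (PHD3, ENSMUSG00000035105.6), the hydroxylase most known for induction by HIF, did not pass the test for DCA. In experiment 1 it had 72.6, 89.3 and 60.6 CPM with DCA and 57.0, 57.9 and 76.8 CPM untreated. Levels in experiment 2 were far higher in both arms, at 318, 278 and 282 CPM with DCA and 327, 288 and 320 CPM in untreated libraries. The groups overlapped in both experiments, and mouse 3 of experiment 1 went against mice 1 and 2. Its log2 fold change was 0.06 (SE 0.10, adjusted p = 0.763). Egln2 (PHD1, ENSMUSG00000058709.12) had 11.7 to 17.3 CPM with DCA and 11.8 to 18.1 CPM untreated in experiment 1. Experiment 2 gave 24.5 to 27.4 CPM with DCA and 21.99 to 27.0 CPM untreated. Its groups overlapped in both experiments, and the log2 fold change of 0.0027 (SE 0.12, 95% interval -0.23 to 0.24, adjusted p = 0.991) changed sign under several alternatives.

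Vhl (ENSMUSG00000033933.14), the substrate receptor of the ubiquitin ligase, had 20.9 to 24.6 CPM with DCA and 18.7 to 22.4 CPM untreated in experiment 1. The range in experiment 2 was 27.5 to 29.2 CPM with DCA and 29.3 to 30.3 CPM untreated. The groups overlapped in experiment 1 and lay just apart in experiment 2, and the log2 fold change of 0.04 (SE 0.08, 95% interval -0.13 to 0.20) did not pass the test. Hif1an (FIH, ENSMUSG00000036450.5) had 19.1, 12.9 and 22.4 CPM with DCA and 22.7, 23.4 and 17.4 CPM untreated in experiment 1. The values of experiment 2 were 10.99, 10.6 and 9.14 CPM with DCA and 11.4, 12.005 and 12.8 CPM untreated. Hif1an was lower with DCA in every mouse but mouse 3 of experiment 1, with overlap in experiment 1 and none in experiment 2, and did not pass the test (log2 fold change -0.23, SE 0.13, adjusted p = 0.267).

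Kdm3a (ENSMUSG00000053470.14), a demethylase of lysine 9 on histone H3 and itself an oxygen-using enzyme, was higher with DCA in 6 of 6 mice. In experiment 1 it had 82.9, 78.2 and 81.8 CPM with DCA, against 61.8, 49.5 and 65.4 CPM untreated. In experiment 2 the gene had 165, 165 and 149 CPM with DCA, against 98.8, 95.4 and 96.8 CPM untreated. The groups were well apart in both experiments. The log2 fold change was 0.59 over both experiments (SE 0.08, adjusted p = 0.000262), 0.46 in experiment 1 and 0.72 in experiment 2, and each of these 3 calls held in every alternative run for it. With Hif1a, Kdm3a was the only member called in both experiments taken singly.

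Ankrd37 (ENSMUSG00000050914.17), a small ankyrin repeat gene used as a marker of HIF activity, had the largest log2 fold change of the 10 over both experiments and in experiment 1, whereas in experiment 2 and in the 4 mice with Y-linked transcripts that of Kdm3a was larger. In experiment 1 it had 110, 111 and 81.8 CPM with DCA, against 35.5, 31.2 and 48.1 CPM untreated. Those of experiment 2 were 62.5, 65.1 and 58.0 CPM with DCA, against 41.3, 38.9 and 47.5 CPM untreated. All DCA libraries were above all untreated ones, and untreated levels of the experiments overlapped, so that the DCA libraries of experiment 1 stood out. The log2 fold change was 0.97 over both experiments (SE 0.16, adjusted p = 0.00105; called in all 21 alternatives) and 1.40 in experiment 1 (SE 0.16, adjusted p = 0.00017), 2.64 times the untreated level. In experiment 2 it was 0.54 (SE 0.15) and missed the threshold (adjusted p = 0.0637; called in 8 of 20 alternatives, over which adjusted p ran from 0.000531 to 0.271). Ankrd37 shares 349 of its 1539 exon bases with Lrp2bp, which stayed at 0.764 CPM or less, and 57 with Ufsp2, which ranged from 70.6 to 106 CPM, both on the opposite strand.

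Bnip3 (ENSMUSG00000078566.9), a mitochondrial receptor for mitophagy, was by far the most counted member. In experiment 1 it had 1221, 1548 and 1069 CPM with DCA and 854, 919 and 1148 CPM untreated. Experiment 2 gave 884, 873 and 938 CPM with DCA and 798, 849 and 871 CPM untreated. The groups overlapped in experiment 1, through mouse 3, and lay narrowly apart in experiment 2. Bnip3 was called higher in experiment 1 (log2 fold change 0.39, SE 0.12, adjusted p = 0.0374) but not over both experiments (0.25, SE 0.09, adjusted p = 0.0835) or in experiment 2 (0.10, SE 0.12). The call in experiment 1 was lost with a term for each mouse (adjusted p = 0.0634) and in 4 of the 12 fits without 1 library, namely those of mice 1 and 2 of experiment 1. Over both experiments Bnip3 was called under cyclic loess scaling, without a filter and with a filter at 5 CPM.

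**Figure D2:**
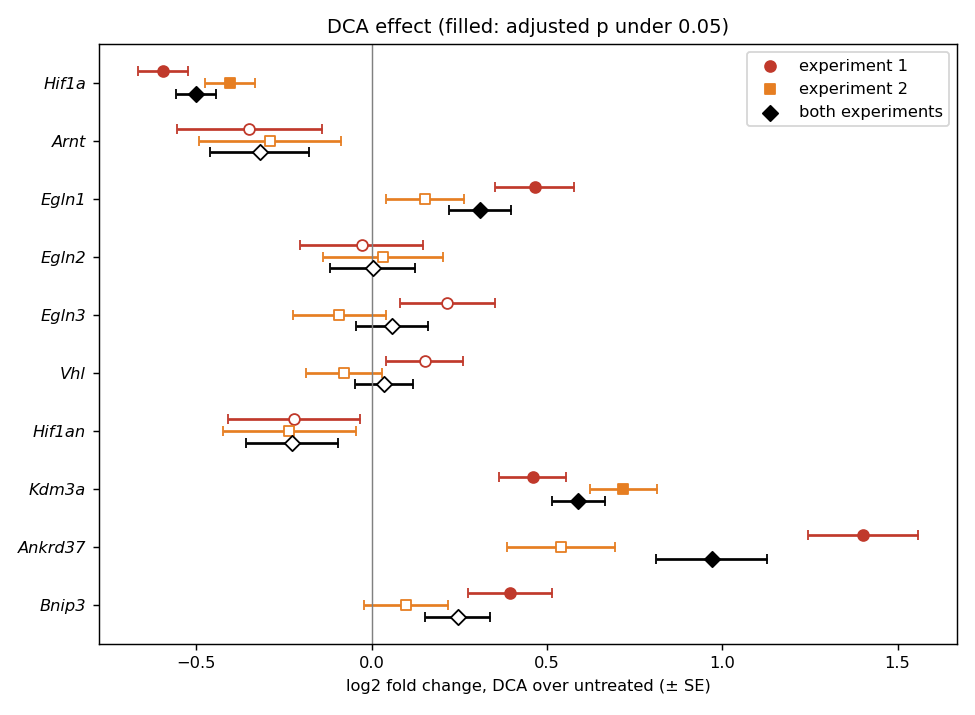
Log2 fold change of DCA over untreated cells (horizontal axis) with its SE for each gene, in experiment 1, experiment 2 and both; filled symbols have an adjusted p under 0.05. Hif1a lies between -0.60 and -0.40 and Kdm3a between 0.46 and 0.72, and Ankrd37 lies at 0.54 in experiment 2 and 1.40 in experiment 1.

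Taken singly, experiment 1 had 4 members higher with DCA (Egln1, Kdm3a, Ankrd37 and Bnip3) and Hif1a lower, where 16.7% of all genes were called (5.67% higher and 11% lower; 889 and 1733 genes, or 1069 and 1027 under cyclic loess). Experiment 2 had Kdm3a higher and Hif1a lower, where 4.57% of all genes were called (2.37% higher and 2.2% lower; 372 and 345 genes, or 391 and 216 under cyclic loess). The DCA and untreated libraries did not overlap for 4 members in experiment 1, against 29.3% of all genes, and for 7 in experiment 2, against 30.2%. No member passed the test of the difference between the DCA effects (0 of 10 in edgeR, where 0.331% of all genes were called, 0.28% higher and 0.051% lower, and 2226 of 15688 had an unadjusted p under 0.05; DESeq2 called 1). Ankrd37 came closest, at -0.86 for experiment 2 minus experiment 1 (SE 0.22, unadjusted p = 0.00142, adjusted p = 0.0936). It was called in 4 of 20 alternatives, among them DESeq2 and the fit without the untreated library of mouse 3 of experiment 1, with adjusted p from 0.000163 to 0.25.

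The differences between the arms of each mouse did not follow the experiments alone. In Ankrd37, the log2 difference was 1.63 and 1.83 in mice 1 and 2 of experiment 1, 0.76 in mouse 3, and 0.60, 0.74 and 0.29 in the mice of experiment 2. Mouse 3 of experiment 1, the one with Y-linked transcripts there, was thus near the range of experiment 2. In Bnip3 the difference was 0.52 and 0.75 in mice 1 and 2, -0.10 in mouse 3, and 0.04 to 0.15 in experiment 2.

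Egln3 followed the same order, at 0.35 and 0.62 in mice 1 and 2, -0.34 in mouse 3 and -0.19 to -0.04 in experiment 2. Egln1 and Vhl also had both mice without Y-linked transcripts above the other 4, by narrow gaps. For these 5 of the 10 members the 2 mice lay above the other 4, as they did for 9.86% of all 15688 genes. Counted in either direction, the 2 mice lay apart from the other 4 for 23.7% of all genes. Hif1a and Kdm3a did not show this order, and their differences were -0.61 to -0.55 and 0.42 to 0.66 in the 2 mice without Y-linked transcripts, against -0.63 to -0.27 and 0.32 to 0.79 in the 4 with them. This grouping was made after the data were seen, and the part of sex in it was not tested. The 4 mice hold all of experiment 2, so that sex and experiment are set apart only by mouse 3 of experiment 1. Over the 4 mice with Y-linked transcripts, Hif1a (-0.46, adjusted p = 0.00297), Kdm3a (0.62, adjusted p = 0.00121) and Ankrd37 (0.60, adjusted p = 0.00309) kept their calls and Egln1 did not (0.19, adjusted p = 0.159). With both libraries of mouse 3 left out, the DCA effect in experiment 1 was 1.73 for Ankrd37, 0.64 for Bnip3 (adjusted p = 0.00151) and 0.49 for Egln3 (adjusted p = 0.0105), and Ankrd37 then passed the test of the difference between experiments (-1.19, adjusted p = 0.00831).

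**Figure D3:**
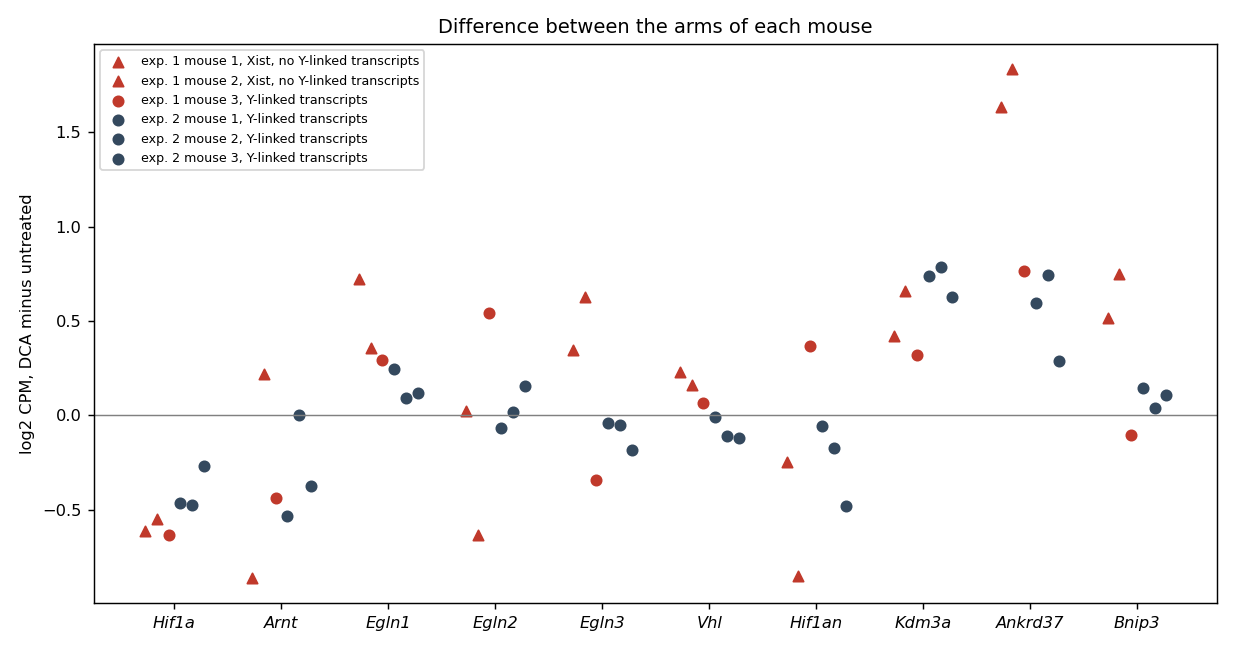
Difference in log2 CPM between the DCA and the untreated library of each mouse (vertical axis) for the 10 genes; red symbols are experiment 1 and dark symbols experiment 2, and triangles are the 2 mice with Xist and no Y-linked transcripts. The triangles lie highest for Ankrd37, Bnip3, Egln3, Egln1 and Vhl, while Hif1a is below 0 and Kdm3a above 0 in all 6 mice.

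Among untreated cells 5 members were higher in experiment 2 than in experiment 1 (Egln3, Egln2, Kdm3a, Vhl and Hif1a) and Hif1an was lower, where 51.8% of all genes were called (26.7% higher and 25.2% lower), so that such differences were the rule. Groups did not overlap for 7 members, against 59.9% of all genes. Egln3 stood out in size, at 312 ± 20.8 CPM in untreated cells of experiment 2 and 63.9 ± 11.2 CPM in those of experiment 1 (SD, n = 3 each), a log2 fold change of 2.29 (SE 0.14, adjusted p = 3.74e-09). Hif1an went the other way, at 12.1 ± 0.675 CPM in experiment 2 and 21.2 ± 3.27 CPM in experiment 1 (log2 fold change -0.81, SE 0.19, adjusted p = 0.00227).

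Among DCA cells all 10 members were called between the experiments, 6 higher and 4 lower in experiment 2, where 52.3% of all genes were called (28.1% higher and 24.1% lower), and none of the 10 overlapped, against 61.5% of all genes. Egln3 was again the largest, at 292 ± 22.01 CPM in experiment 2 and 74.2 ± 14.4 CPM in experiment 1 (SD, n = 3 each; log2 fold change 1.98, SE 0.14, adjusted p = 1.65e-08). Egln1 (-0.42), Ankrd37 (-0.71) and Bnip3 (-0.51) were lower in experiment 2 among DCA cells and did not pass the test among untreated cells. Under cyclic loess scaling the sign of Bnip3 turned, to 0.70 untreated and 0.32 with DCA. The calls of Arnt (adjusted p = 0.0493) and Vhl (adjusted p = 0.0349) among DCA cells were lost in 10 and 13 of the 19 alternatives. The median over all genes was 0.11 in both of these contrasts.

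Per gene length, the scale on which genes can be compared, Bnip3 was highest in all 4 groups. It had 565 ± 108 CPM per kilobase with DCA and 430 ± 68.2 untreated in experiment 1, and 397 ± 15.6 with DCA and 371 ± 16.5 untreated in experiment 2 (SD, n = 3 each). In DCA cells of experiment 1, Ankrd37 (65.7 CPM per kilobase) came next and then Egln3 (27.9), Egln1 (23.7) and Hif1a (20.7), of which Egln3 and Egln1, and Egln1 and Hif1a, had overlapping libraries. In untreated cells of experiment 1, Hif1a (31.2 CPM per kilobase), Ankrd37 (24.9) and Egln3 (24.0) formed the upper group below Bnip3, with Hif1a and Ankrd37, and Ankrd37 and Egln3, overlapping.

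In experiment 2 Egln3 took the place below Bnip3 in both arms, at 110 CPM per kilobase with DCA and 117 untreated. Ankrd37 (40.2 CPM per kilobase) was above Hif1a (32.04) in DCA cells, and below it in untreated cells (27.7 and 42.4), each time without overlap. Kdm3a had 19.4 CPM per kilobase with DCA and 11.8 untreated, which placed it just above Egln1 (17.6, overlapping) with DCA and below it (15.9, not overlapping) in untreated cells. Arnt and Hif1an were the lowest in all groups, at 1.52 to 3.20 CPM per kilobase.

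**Figure D4:**
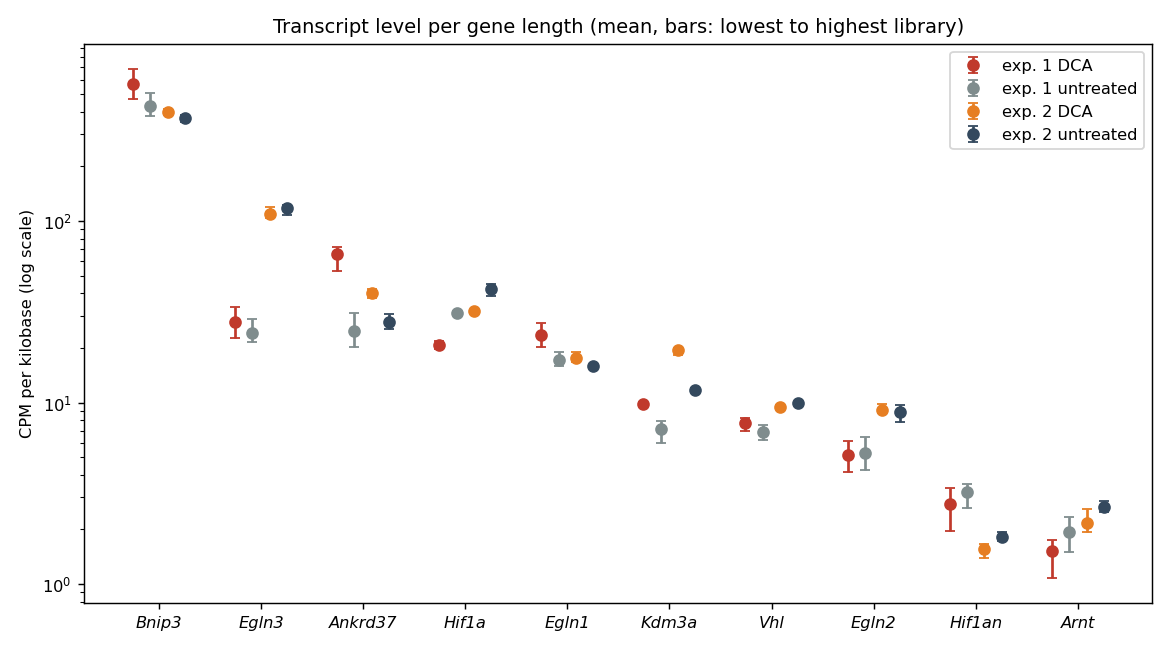
CPM per kilobase of gene length on a log scale for each gene in the 4 groups; points are means of 3 libraries and bars run from the lowest to the highest library. Bnip3 is highest throughout, and Egln3 is near 110 and 117 in experiment 2 and near 27.9 and 24.0 in experiment 1 (DCA and untreated).

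The wider pathway was read from 7 lists of 98 genes, of which 96 were tested; over all tested genes 7.01% were called higher and 9.8% lower. Among HIF subunits, Hif1a and Arnt2, an alternative beta subunit, were called lower and 0 of 5 were called higher, but Arnt2 never exceeded 0.883 CPM. Epas1 (HIF2 alpha) reached at most 2.69 CPM and Hif3a 3.74 CPM. Their log2 fold changes over both experiments were 0.81 (adjusted p = 0.138) and 1.14 (adjusted p = 0.198), and neither passed the test. In the oxygen sensing and degradation list, Egln1 was the 1 gene called higher of 13, and 3 subunits of the ligase that works with VHL were lower: Cul2, the cullin scaffold (log2 fold change -0.43, adjusted p = 0.00271), Eloc, an adaptor (-0.21, adjusted p = 0.0139), and Rbx1, the RING subunit (-0.16, adjusted p = 0.0319). Elob, of the same list, did not pass the test (-0.02, adjusted p = 0.833). Cul2 (adjusted p = 0.135) and Eloc (adjusted p = 0.168) were not called in experiment 2 alone, and Rbx1 was not in experiment 1 (adjusted p = 0.354). Over both experiments Cul2 kept its call in all 21 alternatives, whereas Eloc and Rbx1 were not called in the 4 mice with Y-linked transcripts or under cyclic loess. Rbx1 also lost its call with a term for each mouse (adjusted p = 0.0854) and in 8 of the 12 fits without 1 library, and Eloc without the untreated library of mouse 2 or the DCA library of mouse 1 or 2 of experiment 2. Among 6 coactivators and antagonists, Ep300, the p300 acetyltransferase that the alpha subunit recruits, was the 1 called, higher with DCA (0.49, adjusted p = 0.0034). The count was 2 or 3 without the untreated library of mouse 3 or the DCA library of mouse 1 or 2 of experiment 2. Crebbp, a coactivator of the same list, was lower without passing the test (log2 fold change -0.22, adjusted p = 0.0503). Cited2, an antagonist of the list, was higher without passing the test (0.41, adjusted p = 0.0647). In experiment 1 Ep300 (0.63, adjusted p = 0.00418) and Cited2 (0.68, adjusted p = 0.0182) were called higher and Crebbp lower (-0.32, adjusted p = 0.0398). Of all genes, 5.67% were called higher and 11% lower in experiment 1. No gene of this list was called in experiment 2 (Ep300 0.35, adjusted p = 0.147). Of the 6 genes, 4 had a log2 fold change above 0 over both experiments.

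Glycolytic targets of HIF were called in both directions in the edgeR fit, where 7.01% of all genes were higher and 9.8% lower. Of 20 tested, 3 were higher with DCA, namely Aldoc (aldolase C, log2 fold change 0.77, adjusted p = 0.0147), Slc2a3 (the glucose transporter GLUT3, 0.42, adjusted p = 0.0241) and Pgk1 (phosphoglycerate kinase, 0.21, adjusted p = 0.0217). Eno1 (enolase, -0.25, adjusted p = 0.0117) and Ldha (lactate dehydrogenase A, -0.17, adjusted p = 0.0168) were lower, though Ldha was at 0.0063 under cyclic loess, where 6 genes of the list were higher and 0 lower. With a term for each mouse, Pgk1 (adjusted p = 0.0546) and Ldha (adjusted p = 0.0525) lost their calls. The median of the list was -0.03, or 0.14 under cyclic loess, against -0.02 for all genes.

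Other HIF targets had 7 genes higher and 0 lower of 33 tested, with a median of 0.18, where 7.01% of all genes were higher and 9.8% lower. Next to the members Kdm3a, Ankrd37 and Egln1 these were Fam162a, a mitochondrial protein (0.33, adjusted p = 0.00759), Bnip3l, the NIX mitophagy receptor (0.47, adjusted p = 0.0117), and Mxi1, an antagonist of MYC (0.46, adjusted p = 0.0151). The remaining gene called was Ero1a, an oxidase of the endoplasmic reticulum (0.45, adjusted p = 0.0368), which lost its call in 7 of the 12 fits without 1 library. Without the members the list had 4 higher and 0 lower of 28, and a median of 0.17. This list, too, was chosen with earlier results of these data known, so its counts are no independent support. In experiment 1 the list had 13 higher and 2 lower and a median of 0.25 (5.67% of all genes higher and 11% lower). In experiment 2 it had 1 higher and 0 lower and a median of 0.09 (2.37% and 2.2%). The count over both experiments was 2 in the 4 mice with Y-linked transcripts (Kdm3a and Ankrd37, median 0.06) and 8 with mouse 3 of experiment 1 left out. It was 11 under cyclic loess, and 9 higher and 2 lower without the untreated library of mouse 3 of experiment 2.

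Of 7 mitophagy genes 2 were higher and 2 lower, where 7.01% of all genes were higher and 9.8% lower. Pink1, the kinase that starts ubiquitin-dependent mitophagy, was higher (log2 fold change 1.10, adjusted p = 0.00414), as was Bnip3l. The inner membrane receptor gene Phb2 (-0.54, adjusted p = 0.00383) and the outer membrane receptor gene Fkbp8 (-0.31, adjusted p = 0.00379) were lower. Of 19 genes for JmjC histone demethylases, enzymes of the same class as Kdm3a, 3 were higher and 0 lower: Kdm3a, Kdm2b (0.45, adjusted p = 0.0254) and Jmjd1c (0.25, adjusted p = 0.0345). The 19 include the Y-linked Kdm5d and Uty, which had 0 counts in mice 1 and 2 of experiment 1. Kdm3a alone of that list was called with a term for each mouse, and again in the fit of the 4 mice with Y-linked transcripts. The same held in the fit without mouse 3 of experiment 1 and in 5 of the fits without 1 library.

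**Figure D5:**
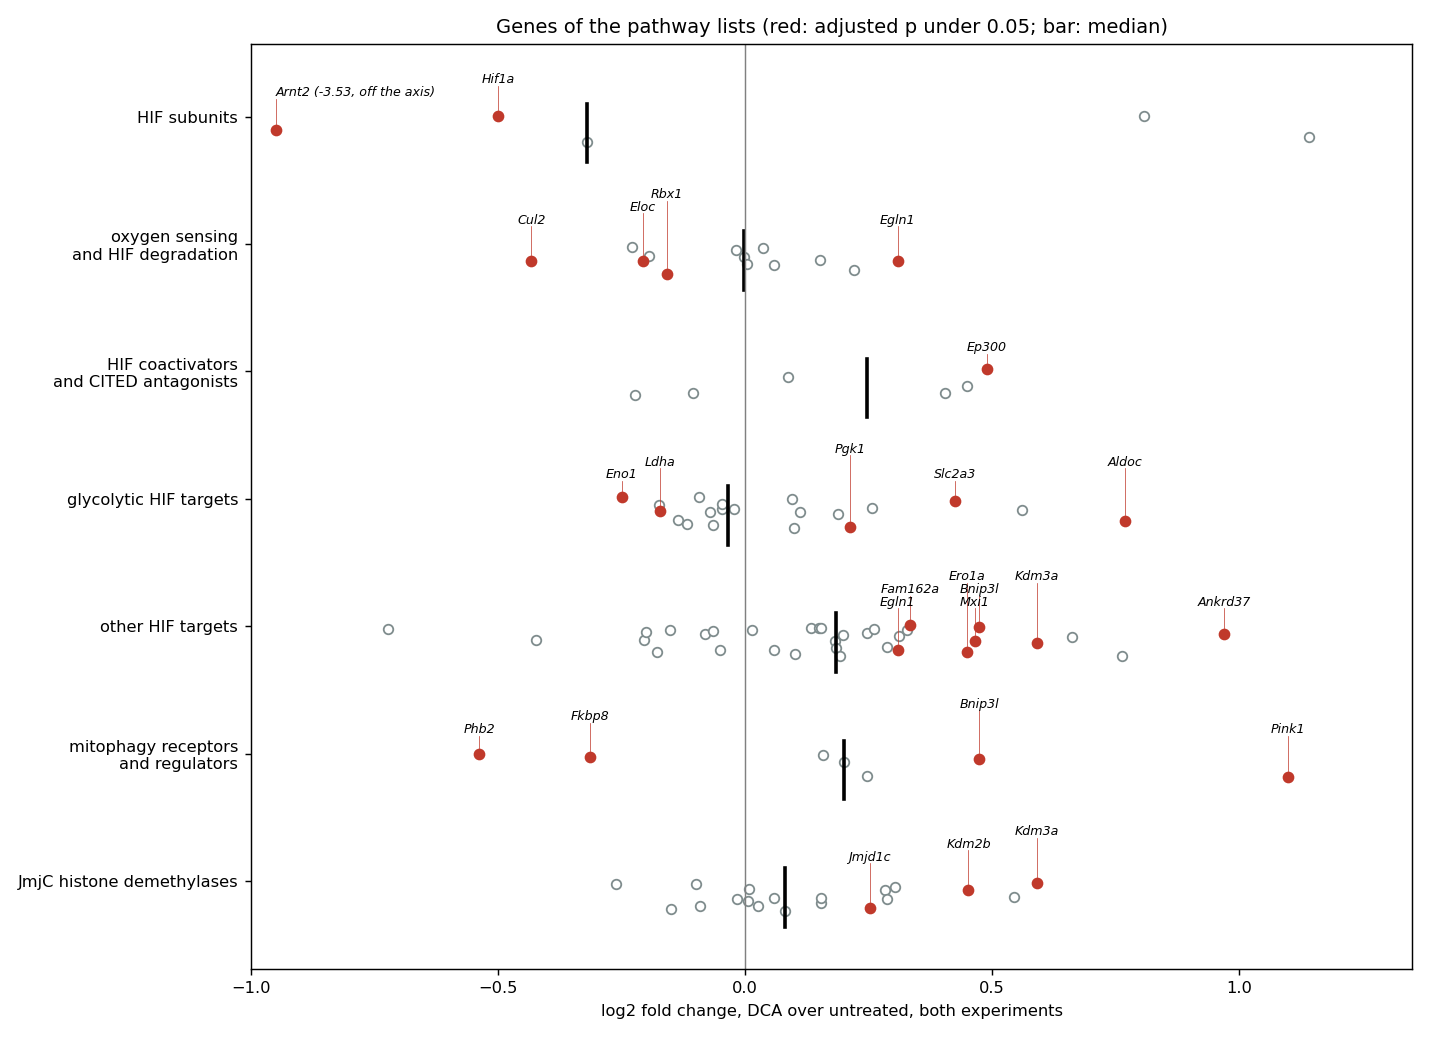
Log2 fold change of DCA over untreated cells, both experiments (horizontal axis), for the tested genes of 7 lists; each point is a gene, red points have an adjusted p under 0.05, and the bar is the median of the list. Other HIF targets have 7 red points, all above 0, while glycolytic targets and mitophagy genes have red points on both sides; Arnt2, at -3.53, is drawn at the left edge.

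The genes whose DCA response was most like that of a called member were sought among 8121 genes by the root mean square difference of the log2 differences over the 6 mice. That they share the member's direction follows from this choice and is no separate result. For Hif1a these were Atl2 (0.07), Sqle (0.08) and Ppat (0.09), all lower with DCA. For Kdm3a they were Mdm2 (0.12), Prkcb (0.14) and Ppt1 (0.14), all higher. For Ankrd37 they were Casp6 (0.19), Mgarp (0.20) and Gm36738 (0.25), all higher. For Egln1 they were Wdyhv1 (0.07), Dnase1l1 (0.08) and Zfp871 (0.08), of which Zfp871 alone was called higher.

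The authors' deposited table of DCA against untreated cells gave the same sign as the present fit for all 10 members, and for 15007 of 15067 genes. Both fits used edgeR on the same counts, so this is no independent check. In the authors' deposited table Hif1a (log2 fold change -0.50, FDR 0.000359), Kdm3a (0.59, FDR 0.000603) and Ankrd37 (0.97, FDR 0.00182) were under an FDR of 0.05, as were 1588 of its 15067 genes. Egln1 was not, at 0.31 with an FDR of 0.0802 in the authors' deposited table.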

How the data were processed

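RNA from sorted CD8+ T cells was amplified as SmartSeq cDNA over 15 cycles and sequenced in 2 technical batches, per the labels' protocols. Raw gene counts were deposited by the authors. The submitters' processing notes name the build GRCm39, edgeR 3.36.0, STAR 2.7.10a and fastp 0.23.2. The sources used here give no read counter, annotation release or strand setting. The authors' deposited table for DCA gave gene lengths, log2 fold changes and p-values with FDR, with its own symbols for 15067 genes; the other symbols came from a GRCm38 gene list. Reads of amplified libraries are not independent molecules.

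The quasi-likelihood test of edgeR 4.0.16 (R 4.3.3) was run on the counts (TMM scaling, filterByExpr by the 4 groups, Benjamini-Hochberg adjusted p under 0.05 over 15688 genes). The pooled fit had terms for experiment and DCA, and a fit with 1 mean per group gave the effects within experiments, their difference and the contrasts between experiments. SE was the log2 fold change divided by the root of F. CPM used TMM library sizes, with a prior count of 2 for log2 values, and was divided by the deposited length where genes were compared. DCA and untreated libraries of the same number came from the same mouse, per the labels. Their deviations from the group means correlated at 0.0443 to 0.0834, against -0.0689 to -0.00438 for libraries of different mice, and sex-linked transcripts matched in both arms of each mouse. Replicates differed by more than counting noise (chi-square per degree of freedom 10.8 to 29.8).

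Alternatives were RLE scaling, cyclic loess with limma 3.58.1, limma-voom, DESeq2 1.42.0, no filter, a filter at 5 CPM in 3 libraries, a term per mouse, and each of 12 libraries left out. After the data were seen, a fit of the 4 mice with Y-linked transcripts (pooled comparison only) and a fit without mouse 3 of experiment 1 were added. The members and lists were chosen with earlier results of these data known. Besides the members, the text names up to 3 called genes per list and direction, ranked by adjusted p, and the 3 genes nearest to each called member (mean log2 CPM 3 or more). Outside this rule, Epas1, Hif3a, Ero1a, Crebbp, Cited2, Elob and Gm15283 were added after their values were seen. Scripts were tested on simulated data.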

Additional observations from a re-analysis of the deposited data

Results flagged for a closer look

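Vhl, the substrate receptor of the ubiquitin ligase that acts on HIF, passed the edgeR test in neither experiment (adjusted p = 0.790 in experiment 2 and 0.391 in experiment 1), but its difference was below 0 in every mouse of experiment 2 and above 0 in every mouse of experiment 1. The log2 difference between the DCA and the untreated library was -0.12 to -0.0072 in the 3 mice of experiment 2 and 0.067 to 0.23 in the 3 mice of experiment 1. The DCA and untreated libraries of experiment 1 overlapped. Vhl was flagged by a rule on these same values, and the share of all genes with such a split was not counted. The fitted DCA effect was -0.08 in experiment 2 and 0.15 in experiment 1, a difference of -0.23 (SE 0.15) that did not pass the edgeR test (adjusted p = 0.554).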

How the results depend on the processing

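Hif1a, Kdm3a and Ankrd37 kept their direction and call over both experiments in all 21 alternatives. Over both experiments 2638 genes were called, but 1429 in the 4 mice with Y-linked transcripts. In experiment 2, 717 genes were called, against 1171 with limma-voom, 1512 with DESeq2 and 1116 without a filter. For the difference between experiments, 52 genes were called, against 30 under cyclic loess, 458 with DESeq2, 566 without a filter and 251 with mouse 3 of experiment 1 left out. In the last 3 of these fits 1 member was called (Ankrd37). Pairing by mouse came from the design. With a replicate block the difference had 24 genes, and Bnip3 in experiment 1 lost its call (adjusted p = 0.0634). Rbx1, Pgk1, Ldha, Kdm2b and Jmjd1c lost theirs over both experiments. No other DCA call of a member changed, nor any other call over both experiments of a list gene named for its call. The block left 2094 genes called over both experiments, 3 glycolytic targets and 1 demethylase.

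Among the lists, oxygen sensing had 2 calls under cyclic loess and 1 in the 4 mice with Y-linked transcripts, and its median was -0.11 with mouse 3 of experiment 1 left out against -0.0019. Coactivators had 2 with RLE scaling. Glycolytic targets had a median of 0.14 under cyclic loess, 1 call in the 4 mice and 3 without mouse 3. Other HIF targets had 11 under cyclic loess and 2 in the 4 mice, and demethylases had 1 in the 4 mice and 1 without mouse 3. Hif1a in DCA cells of experiment 2 was at 31.7 CPM per kilobase with RLE scaling.

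Leaving out 1 library at a time gave 3 to 5 members in experiment 1 (3 without the untreated library of mouse 2 or the DCA library of mouse 1). It gave 210 to 824 genes in experiment 2, the lowest being 210 without the untreated library of mouse 2, 260 without the DCA library of mouse 1 and 271 without that of mouse 2. The difference had 1 to 217 genes and 0 to 1 member. Lists had 1 to 4 calls in oxygen sensing, 1 to 3 in coactivators, 5 to 11 in other HIF targets and 1 to 4 in demethylases.

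Signs turned only for values near 0 or under cyclic loess. Egln2 over both experiments was -0.0071 with RLE, -0.0073 with DESeq2, -0.10 without mouse 3, and -0.056 to 0.083 without 1 library. In the 4 mice Egln3 was -0.15 and Vhl -0.041, and without 1 library they ran from -0.026 to 0.11 and from -0.0071 to 0.066. Egln2 in experiment 1 was 0.0076 under loess, 0.061 at 5 CPM and -0.18 to 0.15 without 1 library, and in experiment 2 -0.095 to 0.063. For the difference, Arnt was -0.027 at 5 CPM and -0.18 to 0.22 without 1 library. Egln2 was -0.0050 under loess, -0.028 at 5 CPM and -0.12 to 0.21 without 1 library. Hif1an was 0.011 with voom, 0.0059 with the block, 0.29 without mouse 3 and -0.20 to 0.17 without 1 library. Between experiments under loess, Egln1 was 0.11 and Bnip3 0.70 in untreated cells and Bnip3 0.32 with DCA; Ldha for DCA was 0.0063. The causes were not tested. Precision is limited by 3 mice a group.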

Other observations

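Genes around the members had fewer calls in experiment 2 than in experiment 1, as all genes did (4.57% and 16.7% called). Of the 7 mitophagy genes, 0 were called in experiment 2 (median log2 fold change 0.064), and 4 were higher and 2 lower with DCA in experiment 1 (median 0.39). Of the 19 JmjC demethylases, 1 was higher in experiment 2 (Kdm3a; median 0.0074), and 5 were higher and 0 lower in experiment 1 (median 0.23). Of the 20 glycolytic targets, 0 were called in experiment 2 (median -0.015), and 3 were higher and 3 lower in experiment 1 (median 0.081). No gene of these 3 lists passed the edgeR test of the difference between the experiments. Hif3a, the third alpha subunit, was not called in experiment 2 (log2 fold change 0.42, adjusted p = 0.742). In experiment 1 Hif3a was called higher with DCA (5.59, adjusted p = 0.0106). The difference between the experiments did not pass the test (adjusted p = 0.126). Hif3a was at no more than 3.74 CPM in any library.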
